A study of Ovis aries with 15 samples.

Results

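The HOX cluster genes encode homeobox transcription factors and lie side by side in 4 clusters, HOXA to HOXD. They were taken here as every symbol made of HOX, a cluster letter and a paralogue number in the promoter tables of 3 histone marks from sheep perirenal adipose tissue, the fat that surrounds the kidney. This gave 33 of the 18460 genes with a promoter in any table, of which 8 belong to HOXA, 9 to HOXB, 8 to HOXC and 8 to HOXD. For H3K27ac 26 of them were listed among 13222 promoters, for H3K4me3 31 among 12922 and for H3K27me3 26 among 6334.

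The study set lambs against fetuses of wild type purebred merino sheep that received no treatment. The lambs were sampled 80 days after birth by the stage label and 89 ± 7 days by the growth protocol, and the fetuses at 132 ± 1 days after conception. Chromatin came from the whole frozen depot, so each value averages over every cell type in the tissue. H3K27ac and H3K27me3 were each measured in 2 lambs and 2 fetuses, and H3K4me3 in 3 lambs and 2 fetuses. The titles give animals 1 and 2 of a stage the same animal code in all 3 marks. Titles of the lamb libraries carry the tag VEH, whose meaning is not given, so it cannot be told apart from stage.

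HOX genes give the cells of an embryo their position from head to tail. Low paralogue numbers lie at one end of a cluster and act towards the head, and high numbers lie at the other end and act towards the tail and the limb tips. Clusters that a cell does not use are held silent by Polycomb complexes, which place H3K27me3. Trithorax complexes place H3K4me3 at the promoters of used genes, and acetylation of the same lysine, H3K27ac, marks active promoters and enhancers. Adult fat cells and their precursors keep a HOX pattern that differs between fat depots.

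Reads in marked regions ranged from 34871674 to 44096535 per library for H3K27ac, from 7233767 to 10645917 for H3K27me3 and from 12482468 to 58333449 for H3K4me3, where lambs 2 and 3 were the shallowest. A promoter level below is the authors' deposited promoter value, scaled anew between the libraries of a mark. The step between deposited values gives the worth of 1 read. On that basis a HOX promoter held 192 to 1234 reads for H3K27ac, 64 to 3252 for H3K4me3 and 7 to 472 for H3K27me3. How wide the promoter window was is not stated in the labels, and HOX genes lie close together, so windows of neighbours may share reads. Each change is the lamb mean minus the fetal mean of log2(value + 1), and a promoter was called at an adjusted p under 0.05 (limma, Benjamini-Hochberg over the whole table of a mark). With all promoters of a mark cut into 4 equal classes by level, the strongest class had a negative median change in every mark: -0.32 for H3K27ac, -0.37 for H3K27me3 and -0.54 for H3K4me3. The weakest class had medians of 0.27, 0.21 and 1.12. HOX promoters sat in the strongest class in 13 of 26 cases for H3K27ac, 14 of 26 for H3K27me3 and 7 of 31 for H3K4me3.

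H3K27me3, the Polycomb mark, was highest at the high end of the clusters in both stages. Pooled over the clusters its level climbed with paralogue number, with a Spearman rho of 0.79 in lambs and 0.83 in fetuses. The 26 HOX promoters share libraries and neighbours and are not independent. Within a cluster the climb was uneven. In HOXD the fetal means were 217, 52.1, 92.5, 70.6 and 136 at HOXD1, HOXD3, HOXD4, HOXD8 and HOXD9, before 594 at HOXD10. In HOXC the lamb means were 384, 232 and 285 at HOXC8, HOXC9 and HOXC10, before 606 at HOXC11. In HOXA the means rose from HOXA2 over HOXA9 and HOXA10 to HOXA13 in both stages. Median levels were 121 in lambs and 131 in fetuses for paralogues 1 to 3, 170 and 218 for paralogues 4 to 8, and 380 and 639 for paralogues 9 to 13. Paralogues 11 to 13, which pattern the limb tips, the tail and the urogenital tract, had medians of 606 in lambs and 959 in fetuses. Those levels stand at the 98.2nd percentile of all H3K27me3 promoters in lambs and at the 98.8th in fetuses.

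**Figure D1:**
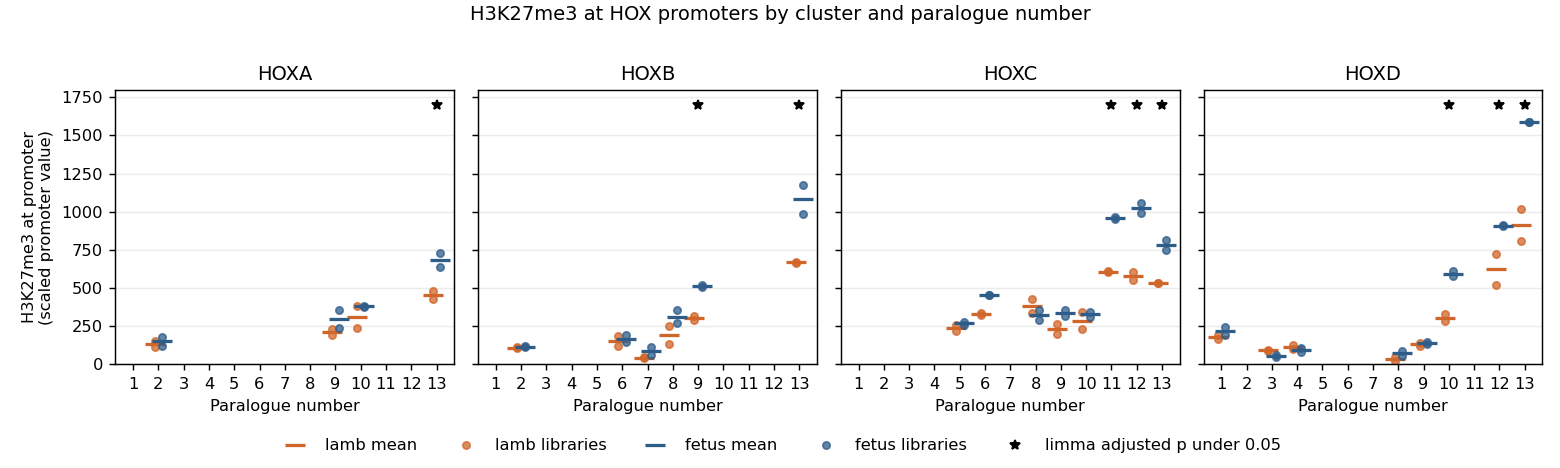
H3K27me3 at HOX promoters (vertical axis, scaled promoter value) against paralogue number (horizontal axis), 1 panel per cluster. Dots are single libraries (2 lambs left, 2 fetuses right of each number), bars are means and stars mark promoters called by limma. HOXD13 stands highest, and all 7 promoters of paralogues 11 to 13 carry a star.

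In lambs 9 of the 26 HOX promoters fell and 0 rose in H3K27me3 (12 and 0 at an unadjusted p under 0.05, limma), where 8.83% of all promoters fell and 4.42% rose. All 9 sat in the strongest level class, where 9 of 14 HOX promoters and 26.3% of all promoters fell. The median HOX change was -0.51, against 0.02 over all promoters, and 23 of 26 changes were negative. All 7 promoters of paralogues 11 to 13 fell, as did HOXB9 and HOXD10, and 0 of the 12 promoters of paralogues 1 to 8 passed (2 at an unadjusted p under 0.05). The fall at paralogues 11 to 13 had a median of -0.66, between -0.55 and -0.83. In bulk tissue fewer cells that carry a mark and less of it per cell cannot be told apart.

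HOXD13, which shapes the digits, had the highest H3K27me3 level of all members. Its promoter stood at 806 and 1018 in lambs, against 1586 and 1589 in fetuses, a change of -0.81 ± 0.14 (SE, limma adjusted p = 0.0016). HOXD12, its neighbour with a like role in the limb, stood at 724 and 519 in lambs, against 911 and 906 in fetuses (-0.57 ± 0.18, limma adjusted p = 0.0366). Both fetuses lay above both lambs at both genes, and the fetuses differed from each other far less than the lambs did. HOXD10, active in the lumbar cord and the hindlimb, stood at 282 and 326 in lambs, against 612 and 576 in fetuses. That is the largest called fall of H3K27me3 among HOX promoters (-0.97 ± 0.20, limma adjusted p = 0.00423).

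In HOXC the same end of the cluster moved. HOXC11, a hindlimb gene, stood at 603 and 610.0 in lambs, against 968 and 949 in fetuses (-0.66 ± 0.16, limma adjusted p = 0.0102). HOXC12 stood at 554 and 602 in lambs, against 1055 and 993 in fetuses (-0.83 ± 0.16, limma adjusted p = 0.00275). HOXC13, which acts in hair and nail formation, stood at 531 and 532 in lambs, against 749 and 811 in fetuses (-0.55 ± 0.17, limma adjusted p = 0.0346). The groups did not overlap at any of the 3 genes, and the 2 libraries of a stage lay close together. Groups that do not overlap were also seen at 59.8% of all H3K27me3 promoters.

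HOXB13, a gene of the tail bud and the prostate, lies far from its nearest cluster neighbour. It stood at 665 and 668 in lambs, against 981 and 1178 in fetuses (-0.69 ± 0.16, limma adjusted p = 0.00772). HOXB9, which acts in the chest wall, stood at 315 and 289 in lambs, against 518 and 505 in fetuses (-0.76 ± 0.21, limma adjusted p = 0.0196). HOXA13, needed for digits and the urogenital tract, stood at 478 and 425 in lambs, against 639 and 731 in fetuses (-0.60 ± 0.18, limma adjusted p = 0.0341). At all 3 genes the lambs were lower than either fetus.

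The remaining 17 HOX promoters did not pass for H3K27me3. HOXC9, HOXC6 and HOXB8 had negative changes of -0.54, -0.45 and -0.77 (limma adjusted p = 0.143, 0.147 and 0.0831). HOXC8, HOXD4 and HOXD3 were the promoters with positive changes, at 0.25, 0.31 and 0.77 (limma adjusted p = 0.468, 0.61 and 0.281). HOXD8 and HOXB7 carried the least of the mark in lambs: HOXD8 stood at 22.9 and 45.3 in lambs, against 53.8 and 87.5 in fetuses. HOXB7 stood at 39.3 and 45.3 in lambs, against 57.1 and 115 in fetuses. Both genes therefore had lower values in each lamb than in either fetus, on few reads and without passing (limma adjusted p = 0.252 and 0.255).

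The H3K27me3 calls depended on how the libraries were scaled and on single animals. Cyclic loess, which removes a shift that depends on level, left 0 of the 9 calls and a median change of -0.03 at paralogues 11 to 13, with 5 of 7 still negative. Without lamb 2, without fetus 1 or without fetus 2 the count of calls was also 0, while all 7 promoters stayed negative with medians of -0.67, -0.72 and -0.57. Without lamb 1 it was 11. Without lamb 2 the same test called 0 of all 6334 promoters (limma), and 11 HOX promoters had an unadjusted p under 0.05. Kidney markers, of which 7 of 10 were listed and 0 called, had H3K27me3 sums of 2486 and 1810 in lambs, against 2285 and 2424 in fetuses. Of the 7 skeletal muscle markers 2 were listed and 1, ACTA1, fell with the HOX genes. Of all promoters 8.83% fell, and of the strongest level class 26.3%. The sums of the 2 muscle markers were 1035 and 820 in lambs, against 1395 and 1347 in fetuses. KDR, the 1 endothelial marker listed, had a change of -0.68 without passing (limma adjusted p = 0.0685). The fat cell, lymphocyte, macrophage and adrenal lists gave 0 calls. The part of these values in the H3K27me3 result was not tested.

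H3K27ac, the mark of active promoters, was lower in lambs over much of the clusters. It fell at 13 of 26 HOX promoters and rose at 2, where 17.7% of all promoters fell and 11.4% rose. In the strongest level class 10 of 13 HOX promoters fell, against 46.4% of all promoters of that class. The median change was -0.41 for HOX promoters, against 0.02 for all. HOXA was the most uniform cluster, with 6 of 7 listed promoters lower and a median of -0.50. In HOXC 3 of 5 fell, in HOXB 3 of 8 fell and 2 rose, and in HOXD 1 of 6 fell. Lamb and fetal values did not overlap at 19 of 26 HOX promoters, against 66.4% of all H3K27ac promoters. By position, 7 of 11 promoters fell at paralogues 4 to 8, 4 of 8 at paralogues 1 to 3 (with both rises) and 2 of 7 at paralogues 9 to 13.

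**Figure D2:**
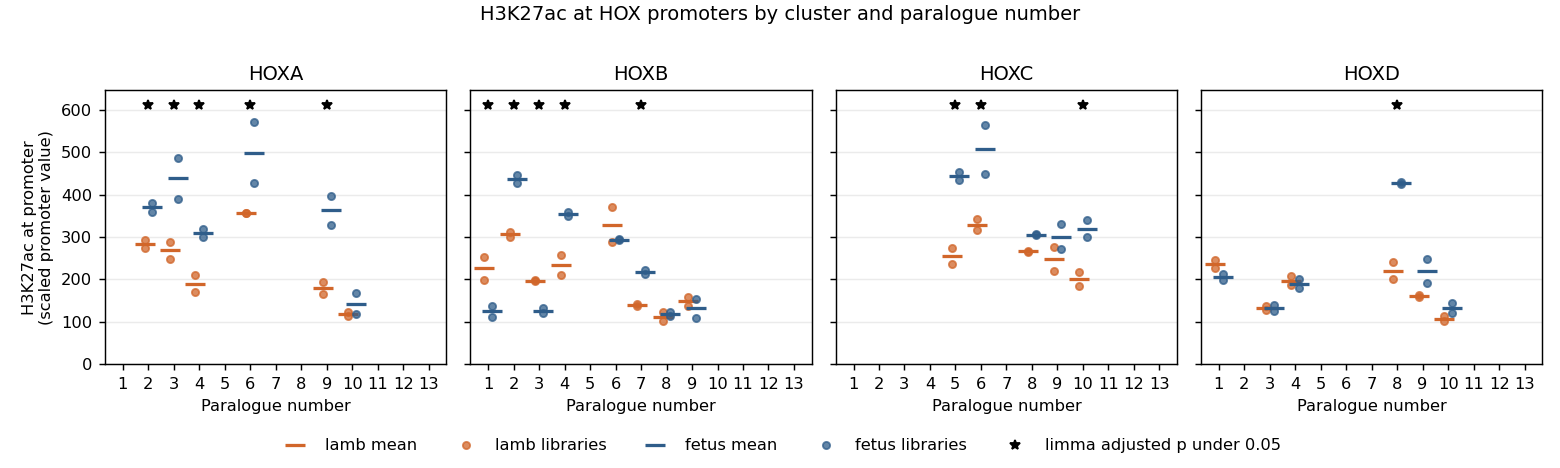
H3K27ac at HOX promoters (vertical axis, scaled promoter value) against paralogue number (horizontal axis), 1 panel per cluster. Dots are single libraries (2 lambs left, 2 fetuses right of each number), bars are means and stars mark promoters called by limma. HOXB1 and HOXB3 are the starred promoters at which lambs stand above fetuses.

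HOXA9, a gene of the posterior trunk and of blood stem cells, had the largest H3K27ac change among HOX promoters. It stood at 194 and 165 in lambs, against 396 and 329 in fetuses (-1.01 ± 0.14, limma adjusted p = 0.0001). HOXA4 stood at 170 and 209 in lambs, against 300.1 and 319 in fetuses (-0.71 ± 0.14, limma adjusted p = 0.00153). HOXA3, which patterns the throat and its glands, stood at 248 and 288 in lambs, against 390 and 486 in fetuses (-0.70 ± 0.13, limma adjusted p = 0.00112). Every lamb lay below every fetus at these genes. HOXA2 and HOXA6 also fell, by 0.39 and 0.47 on the log2 scale. HOXA10, the last HOXA gene with an H3K27ac promoter, stood at 124 and 115 in lambs, against 168 and 117 in fetuses, so that its groups overlapped.

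In HOXD 1 gene passed. HOXD8, which lies in the middle of its cluster, stood at 200 and 241 in lambs, against 425 and 429 in fetuses (-0.96 ± 0.13, limma adjusted p = 8.1e-05). Its fetal libraries agreed closely, and both lambs lay far below them. HOXD9 stood at 158 and 163 in lambs, against 247 and 190 in fetuses, without passing (-0.43 ± 0.17, limma adjusted p = 0.0571). HOXD1, HOXD3 and HOXD4, at the low end of the cluster, had changes of 0.20, 0.00 and 0.05, and none of them passed.

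HOXC5 and HOXC6, genes of the neck and upper trunk, were strong H3K27ac promoters in fetuses. HOXC5 stood at 236 and 274 in lambs, against 454 and 435 in fetuses (-0.80 ± 0.12, limma adjusted p = 0.000222). HOXC6 stood at 316 and 342 in lambs, against 449 and 564 in fetuses (-0.61 ± 0.13, limma adjusted p = 0.00224). The lambs lay below both fetuses at each. HOXC6 kept a level at the 94.0th percentile of all H3K27ac promoters in lambs.

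HOXB held changes in both directions. HOXB1, which patterns the hindbrain, stood at 253 and 199 in lambs, against 137 and 112 in fetuses (0.85 ± 0.18, limma adjusted p = 0.00228). HOXB3 stood at 197 and 198 in lambs, against 120 and 132 in fetuses (0.65 ± 0.17, limma adjusted p = 0.00984). Between them in the cluster, HOXB2 fell: it stood at 301 and 311 in lambs, against 427 and 446 in fetuses (-0.51 ± 0.12, limma adjusted p = 0.00405). Neighbouring promoters thus moved in opposite directions, and the groups did not overlap at any of the 3. HOXB1 and HOXB3 were listed in no other mark. HOXB4 fell by 0.61 on the log2 scale. HOXB7 stood at 141 and 138 in lambs, against 222 and 213 in fetuses (-0.64 ± 0.16, limma adjusted p = 0.00672). HOXB6, HOXB8 and HOXB9 had changes of 0.15, -0.09 and 0.19, and their groups overlapped.

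The H3K27ac counts depended on the libraries kept and on the scaling, for HOX promoters as for the whole table. Without lamb 1 the median HOX change was -0.38, against 0.01 over all promoters. Without lamb 2 it was -0.45, against 0.02 over all promoters. In both fits 20 of 26 HOX changes were negative. Cyclic loess gave 8 lower and 2 higher HOX promoters, where 1343 of all 13222 promoters were lower and 1143 higher. Of the 2 rises under cyclic loess 1 lay at paralogues 1 to 3 and 1 at paralogues 4 to 8. HOXB1 and HOXB3, the 2 rises reported, thus did not both keep their call. The fat cell markers fixed for this check were all 8 listed for H3K27ac, and 5 of them fell with 0 rising. Their summed levels were 1857 and 1864 in lambs, against 2714 and 3143 in fetuses. Of the 9 lymphocyte markers 6 were listed and 4 rose, with sums of 1208 and 1030 in lambs, against 685 and 635 in fetuses. Of the 7 endothelial markers 6 were listed and 3 fell, with sums of 1666 and 1560 in lambs, against 1968 and 1822 in fetuses. The kidney list had 1 of its 10 markers in the table, SLC12A3, which rose. Of the macrophage markers 3 were listed, with 1 rise and 1 fall. Of the skeletal muscle markers 2 were listed, also with 1 rise and 1 fall. Of the adrenal markers 3 were listed and 1 rose. Over all promoters 17.7% fell and 11.4% rose, and 46.4% of the strongest level class fell. The part of these marker values in the HOX result was not tested.

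H3K4me3, the mark of promoters in use or poised, changed at few HOX promoters past the test. Of 31 promoters 1 rose and 0 fell, where 8.33% of all promoters rose and 1.90% fell. At an unadjusted p under 0.05 there were 4 higher and 5 lower. The median change was -0.28 for HOX promoters, against 0.00 for all. The signs differed by position in the cluster. All 6 listed promoters of paralogues 1 to 3 had negative changes, with a median of -0.39. All 7 of paralogues 11 to 13 had positive ones, with a median of 0.68. The 2 groups also differed in level, with fetal levels at median percentiles of 68.0 and 39.4. From the weakest to the strongest level class, all promoters had median changes of 1.12, 0.38, -0.22 and -0.54. The part of level in the HOX signs was not tested. Across the 31 promoters paralogue number and change had a Spearman rho of 0.54, given as a description. Under the deposited scaling, which puts the median of all promoters at -1.28, the 7 changes were negative, with a median of -0.60 that still lies above that of all promoters. Under cyclic loess all 7 stayed positive, with a median of 0.48, while paralogues 1 to 3 had 4 negative and 2 positive changes, with a median of -0.13.

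**Figure D3:**
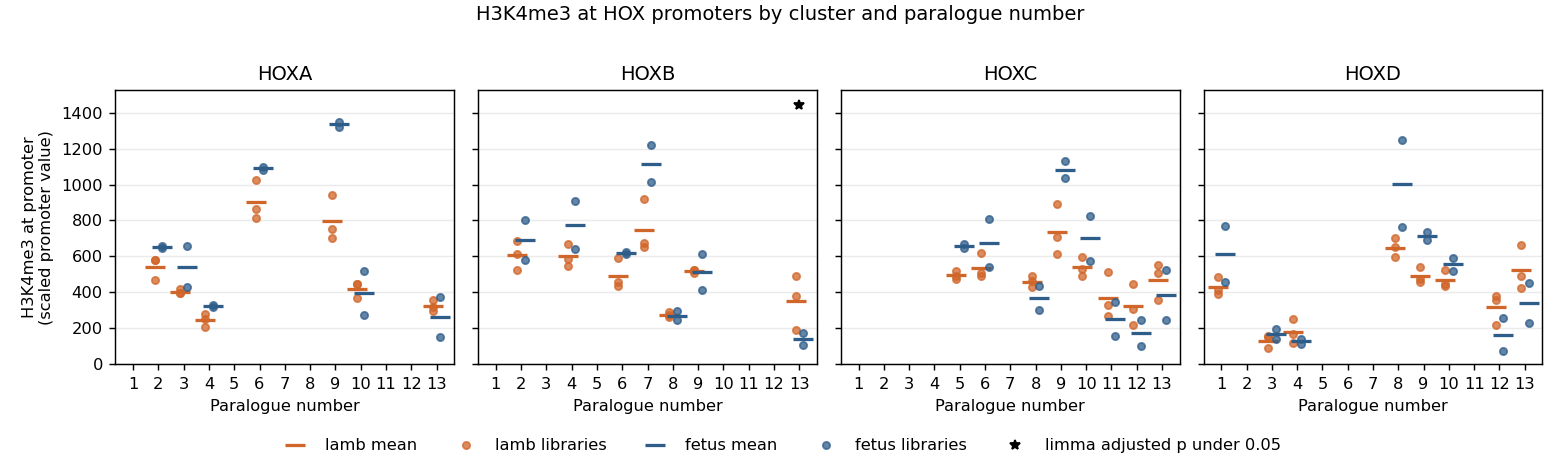
H3K4me3 at HOX promoters (vertical axis, scaled promoter value) against paralogue number (horizontal axis), 1 panel per cluster. Dots are single libraries (3 lambs left, 2 fetuses right of each number), bars are means and the star marks the promoter called by limma, HOXB13. Fetus 1 lies above fetus 2 at all 7 promoters of paralogues 11 to 13.

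HOXB13 was the HOX promoter that rose. It stood at 187, 488 and 381 in lambs, against 172 and 106 in fetuses (1.27 ± 0.38, limma adjusted p = 0.0313). Lamb 1 lay just above fetus 1, and the other two lambs lay far above both fetuses. HOXD12 stood at 217, 357 and 378 in lambs, against 254 and 71.9 in fetuses (1.18 ± 0.41, limma adjusted p = 0.0507). HOXC12 stood at 220, 447 and 308 in lambs, against 245 and 101 in fetuses (0.98 ± 0.38, limma adjusted p = 0.0733). HOXD13 stood at 422, 664 and 493 in lambs, against 453 and 229 in fetuses (0.68 ± 0.29, limma adjusted p = 0.1). At these 3 genes lamb 1 lay below fetus 1, so the groups overlapped.

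Fetus 1 lay above fetus 2 at all 7 promoters of paralogues 11 to 13, and the size of their changes turned on which fetus was kept. Without fetus 1 all 7 changes were positive, with a median of 1.18, against 0.07 for all promoters. Without fetus 2, 5 of the 7 stayed positive, with a median of 0.19, against -0.03 for all promoters. Leaving out lamb 2 gave 0 HOX calls, where 40 of all 12922 promoters rose and 10 fell. Leaving out lamb 3 also gave 0, where 8 of all promoters rose and 4 fell. Under cyclic loess 0 of all promoters were called in either direction. The 7 promoters had fetal levels at a median percentile of 39.4 of the table. Macrophage markers, of which 4 of 7 were listed and 2 rose, had sums of 745, 1374 and 1006 in lambs, against 406 and 395 in fetuses. Lymphocyte markers, of which 5 of 9 were listed and 2 rose, had sums of 811, 1415 and 1135 in lambs, against 699 and 372 in fetuses. Of all promoters 8.33% rose, and of the weakest level class 17.5%. Fetal levels of the macrophage and lymphocyte markers had median percentiles of 16.1 and 22.3. Their median changes were 1.25 and 1.12, against 1.12 in the weakest level class. The part of these values in the H3K4me3 result was not tested.

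The strongest fetal H3K4me3 among HOX promoters lay at HOXA9. It stood at 942, 700.1 and 750 in lambs, against 1349 and 1321 in fetuses, without passing (-0.76 ± 0.29, limma adjusted p = 0.0712). All 3 lambs lay below both fetuses. Groups that do not overlap were found at 13 of 31 HOX promoters and at 48.5% of all H3K4me3 promoters. HOXB13 was the one of the 13 at which lambs were higher, and HOXA6, HOXB7, HOXC9 and HOXD9 were among those at which they were lower. HOXD3 and HOXD4 carried the least in lambs: HOXD3 stood at 87.7, 155 and 149 in lambs, against 193 and 141 in fetuses.

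Some HOX genes differ in expression between fat depots and were looked at in all 3 marks. HOXC8 has been described in mice as an opponent of the brown fat programme. Its H3K27ac stood at 265 and 267 in lambs, against 307 and 305 in fetuses (-0.20 ± 0.12, limma adjusted p = 0.235). Its H3K27me3 stood at 429 and 338 in lambs, against 356 and 286 in fetuses (0.25 ± 0.23, limma adjusted p = 0.468). Its H3K4me3 stood at 428, 488 and 460.0 in lambs, against 433 and 304 in fetuses (0.34 ± 0.28, limma adjusted p = 0.366). No mark passed at HOXC8, and only H3K27ac separated the stages.

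HOXC9, used as a marker of white fat in mice, did not pass in any mark either. Its H3K27ac stood at 219 and 276 in lambs, against 329 and 271 in fetuses, and these overlapped (-0.28 ± 0.15, limma adjusted p = 0.161). Its H3K27me3 stood at 265 and 198 in lambs, against 316 and 354 in fetuses (-0.54 ± 0.25, limma adjusted p = 0.143). Its H3K4me3 stood at 892, 705 and 612 in lambs, against 1130 and 1036 in fetuses (-0.57 ± 0.28, limma adjusted p = 0.136). Both methyl marks thus had every lamb below every fetus without passing.

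HOXC10, a lumbar gene that opposes browning of fat in mice, did change in H3K27ac. It stood at 183 and 217 in lambs, against 339 and 300.0 in fetuses (-0.68 ± 0.14, limma adjusted p = 0.00191). Its H3K27me3 stood at 344 and 227 in lambs, against 309 and 343 in fetuses (-0.22 ± 0.25, limma adjusted p = 0.565). Its H3K4me3 stood at 527, 599 and 493 in lambs, against 826 and 576 in fetuses (-0.36 ± 0.27, limma adjusted p = 0.31). The fall of acetylation therefore stood beside overlapping values in the other two marks.

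**Figure D4:**
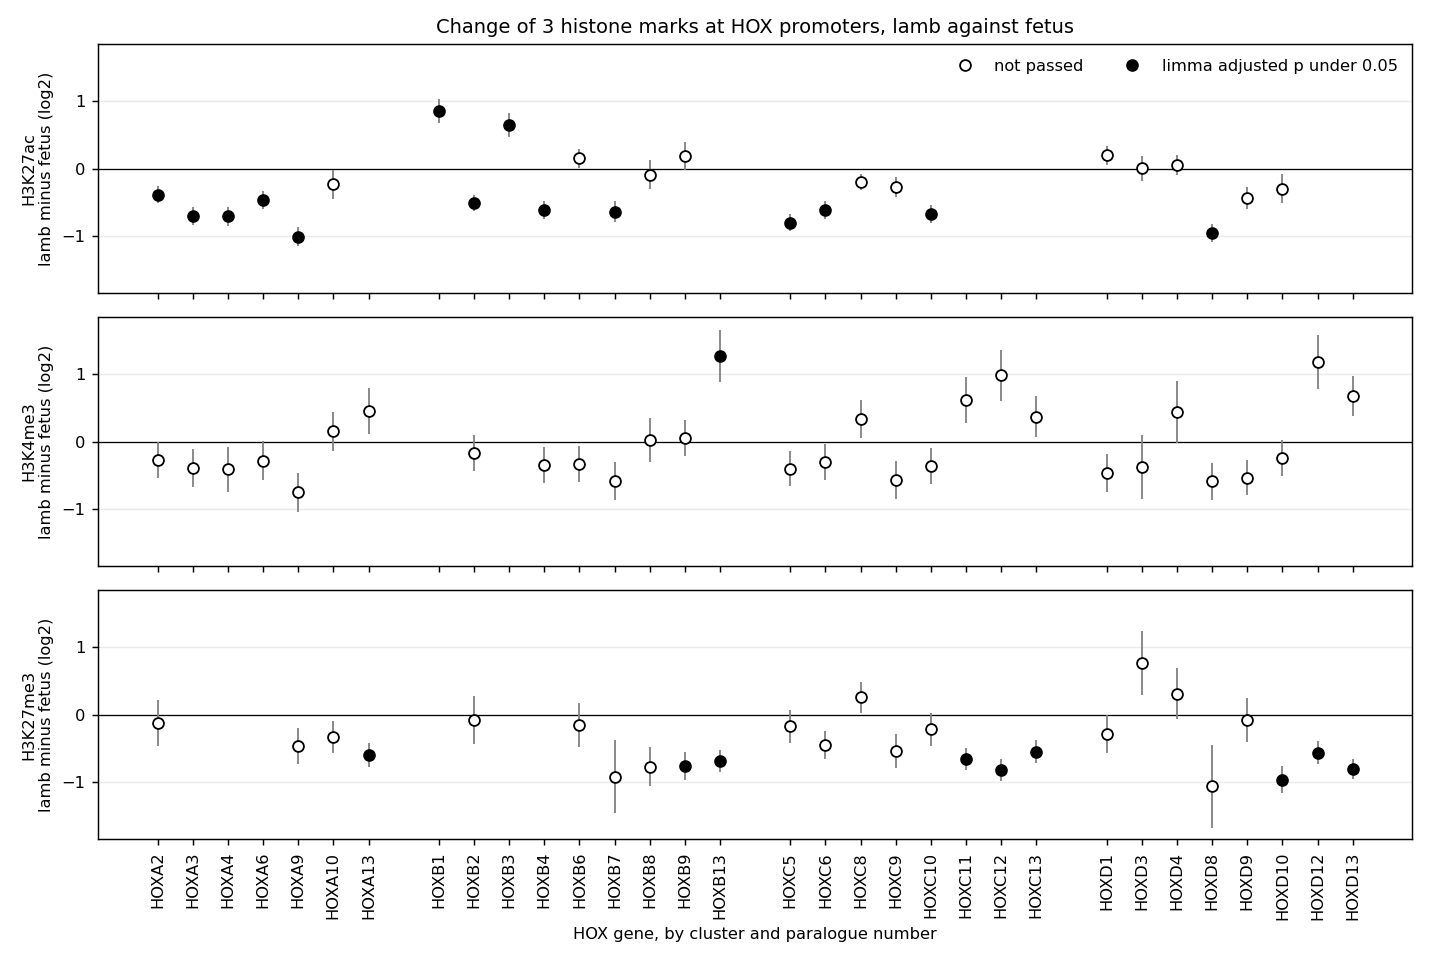
Change of each mark at HOX promoters (lamb minus fetus, log2, vertical axes) in the order of cluster and paralogue number (horizontal axis), with bars for the standard error. Filled points passed limma at an adjusted p under 0.05 and open points did not. H3K27ac calls lie mostly at paralogues 1 to 8 and H3K27me3 calls at paralogues 9 to 13, of which 11 to 13 have no H3K27ac value.

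Set side by side, the 3 tables covered different sets of genes. Of the 33 genes 19 were listed in all 3 tables, 12 in 2 and 2 in 1. The 7 genes of paralogues 11 to 13 had an H3K27me3 and an H3K4me3 promoter but none in the H3K27ac table, and another 7 genes had H3K27ac without H3K27me3. In all, 24 genes were called in at least 1 mark. Over all promoters 29.1% were called in H3K27ac, 10.2% in H3K4me3 and 13.2% in H3K27me3. The share of all genes called in any mark was not computed. A fall was called in H3K27ac at 13 genes and in H3K27me3 at 9, with no gene in common. Few could have shared both calls, since 2 of the 9, HOXB9 and HOXD10, had an H3K27ac promoter and 8 of the 13 an H3K27me3 promoter. Over the 19 genes listed for both lysine 27 marks the changes had a Pearson r of 0.32 and a Spearman rho of 0.27. The same values were 0.55 and 0.54 between H3K27ac and H3K4me3 (24 genes) and -0.17 and -0.17 between H3K4me3 and H3K27me3 (26 genes). These are descriptions across genes that share animals.

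HOXA5, known for depot-dependent expression in fat, is not among the members because its name occurs on 2 genes, with a position attached to each. One promoter belongs to a gene at chr4:68876467-68891655 of the Oar_v3.1 build (ENSOARG00000009717). Another belongs to a gene at chr11:37445109-37446597 (ENSOARG00000007034). The tables hold no promoter named HOXB5, and in the RefSeq annotation of a later sheep assembly (ARS-UI_Ramb_v3.0) the HOXB genes lie on the chromosome numbered 11. The name of the second gene is given here only as deposited.

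At the HOXA5 promoter on chromosome 4 H3K27ac stood at 284 and 299 in lambs, against 580 and 512 in fetuses (-0.90 ± 0.12, limma adjusted p = 7.04e-05). Its H3K4me3 stood at 740.0, 577 and 574 in lambs, against 801 and 879 in fetuses, and its H3K27me3 at 115 and 128 in lambs, against 111 and 70.7 in fetuses. Neither methyl mark passed (limma adjusted p = 0.237 and 0.454). HOXA3, HOXA4, HOXA6 and HOXA9 around it fell in H3K27ac as well. The promoter named HOXA5 on chromosome 11 had an H3K27ac level of 183 and 155 in lambs, against 226 and 196 in fetuses, and passed in no mark.

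Marked regions show the shape of the domain around these positions. On chromosome 4 H3K27me3 lay almost wholly on the side of lower coordinates, where 21 regions within 150 kb covered 122 kb, against 3.7 kb in 2 regions on the other side. The widest, chr4:68790851-68832700, spans 41.9 kb. Its density was 8.78 and 8.37 RPKM in lambs (reads per kb of region, relative to the reads in all marked regions and TMM-scaled), against 11.2 and 12.6 in fetuses, without passing (change -0.47, edgeR adjusted p = 0.183). Another wide region followed at chr4:68833201-68858950, with 8.46 and 6.98 in lambs, against 10.5 and 11.7 in fetuses. Beyond it H3K27me3 lay in shorter regions of lower density, and the first of them, chr4:68859701-68863450, had 5.02 and 3.996 in lambs, against 5.80 and 6.72 in fetuses. The lowest H3K27ac region by coordinate, chr4:68859801-68863400, lay inside that region, so both marks were called there. H3K27ac covered 85.0 kb in 19 regions, of which 10.8 kb overlapped H3K27me3. H3K4me3 ran through both, with 19 of its 29 regions overlapping H3K27me3.

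**Figure D5:**
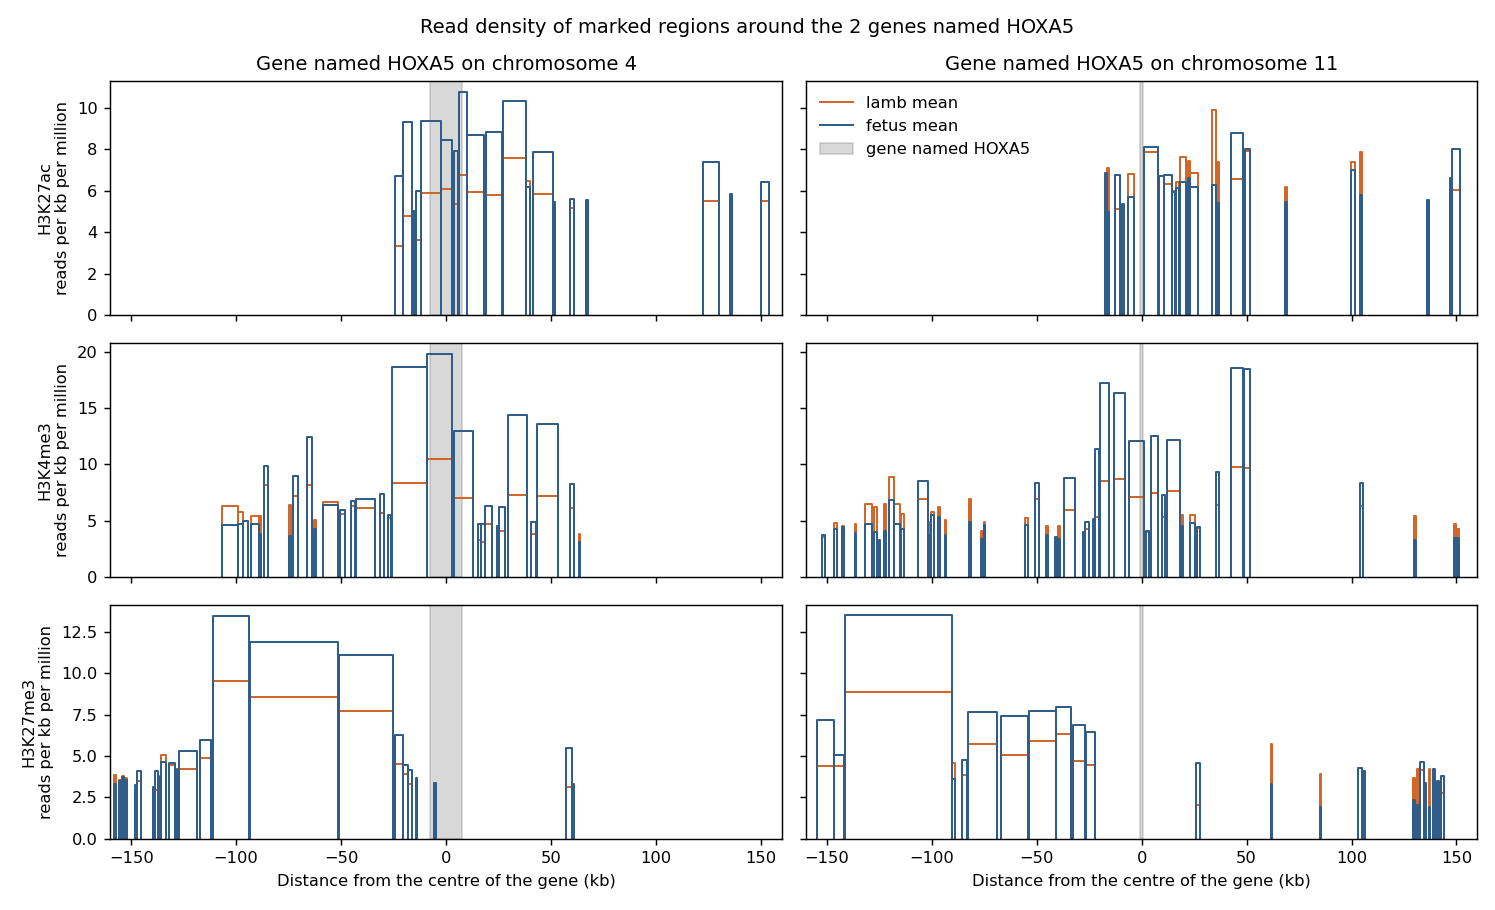
Read density of marked regions (vertical axes, RPKM, mean over libraries) within 150 kb of the 2 genes named HOXA5, against distance from the centre of the gene in kb (horizontal axis). Each box is 1 region as wide as drawn, lamb and fetus means are outlined in their colours and the gene is shaded grey. H3K27me3 covers mostly the side of lower coordinates at both genes. H3K27ac lies on both sides, over the gene on chromosome 4 and with 0 regions over the gene on chromosome 11.

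Most H3K27ac regions around the chromosome 4 gene were lower in lambs. Of the 19 H3K27ac regions near HOXA5 on chromosome 4, 12 fell and 0 rose (edgeR adjusted p under 0.05), where 9.44% of all H3K27ac regions fell and 4.48% rose. Of those that fell 3 lay on the side of lower coordinates, 4 overlapped the gene and 5 lay on the other side. The region inside H3K27me3, chr4:68859801-68863400, had 3.37 and 3.25 RPKM in lambs, against 7.47 and 5.92 in fetuses (change -1.02, edgeR adjusted p = 0.000949). The region over the lower-coordinate end of the HOXA5 gene, chr4:68872051-68881550, had 5.82 and 5.96 in lambs, against 10.6 and 8.14 in fetuses (change -0.67, edgeR adjusted p = 0.00446). Lambs lay below both fetuses in each. The H3K4me3 region chr4:68858151-68874900, which covers the first of these and overlaps the second, had 10.9, 7.25 and 6.93 in lambs, against 20.5 and 16.7 in fetuses. It did not pass (change -1.15, edgeR adjusted p = 0.129), and 0 of the 75 H3K4me3 regions near both genes did, where 0.0529% of all such regions rose and 0.0619% fell.

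Around the chromosome 11 gene H3K27me3 covered 124 kb on the side of lower coordinates and 14.4 kb on the other. Its widest block, chr11:37304751-37355450, spans 50.7 kb and had 8.95 and 8.82 RPKM in lambs, against 12.8 and 14.3 in fetuses, with both lambs lower but no call (change -0.60, edgeR adjusted p = 0.0838). Of 24 H3K27me3 regions 1 fell, where 7.18% of all such regions fell and 7.58% rose. That region, chr11:37471851-37473450, had 1.73 and 2.38 in lambs, against 5.15 and 4.05 in fetuses (change -1.16, edgeR adjusted p = 0.0219). Of 23 H3K27ac regions 3 fell and 1 rose, where 9.44% of all such regions fell and 4.48% rose. The one that rose, chr11:37479151-37481500, had 10.7 and 9.09 in lambs, against 6.74 and 5.84 in fetuses (change 0.66, edgeR adjusted p = 0.0102). Near both genes together 15 H3K27ac regions fell. How many regions were called depended on the libraries kept, near these genes and over all regions. The 42 H3K27ac regions near both genes had a median change of -0.139. It was -0.261 without lamb 1 and -0.226 without lamb 2, against -0.0032 and 0.0033 over all regions. For the 48 H3K27me3 regions the median was -0.295. It was -0.412 without fetus 1, -0.192 without fetus 2, -0.238 without lamb 1 and -0.445 without lamb 2. Over all H3K27me3 regions these fits gave medians of 0.089, 0.077, 0.020 and -0.017.

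Non-coding promoters inside the clusters were listed for both methyl marks. The 8 listed are numbered entries of 2 names, HOXA11-AS1 and HOXB13-AS1, and are not independent. In H3K27me3 5 of them fell, where 8.83% of all promoters and 26.3% of the strongest level class fell. All 8 stood at or above the 96.0th percentile in fetuses. The other 3 did not pass, with changes of -0.55, -0.43 and -0.46 (limma adjusted p = 0.0584, 0.0941 and 0.0953). None of the 8 was called in H3K4me3, and 2 had an unadjusted p under 0.05 (limma). The one labelled HOXA11-AS1_6 stood at 858 and 841 in lambs, against 1314 and 1313 in fetuses (-0.63 ± 0.14, limma adjusted p = 0.00659). HOXB13-AS1_2 stood at 511 and 515 in lambs, against 887 and 1121 in fetuses (-0.96 ± 0.17, limma adjusted p = 0.0016). The groups were well apart at both. ChIP reads carry no transcript strand, so these values cannot be separated from those of the overlapping or adjoining HOX genes.

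Few genes that flank the clusters were listed for H3K27me3. Of the 18 on the list 4 had such a promoter, and 2 fell, where 8.83% of all promoters and 26.3% of the strongest level class did. These were the homeobox genes EVX1 and EVX2, which adjoin the high ends of HOXA and HOXD. EVX2 stood at 672 and 705 in lambs, against 1096 and 1215 in fetuses (-0.75 ± 0.15, limma adjusted p = 0.00361). EVX1 stood at 694 and 569 in lambs, against 991 and 1087 in fetuses (-0.72 ± 0.16, limma adjusted p = 0.00674). Both fetuses lay above both lambs. In H3K4me3, 11 neighbours were listed. EVX1 and EVX2 rose by 1.06 and 1.18 on the log2 scale and SKAP2 fell, where 8.33% of all promoters rose and 1.90% fell. EVX1 stood at 303, 529 and 357 in lambs, against 296 and 115 in fetuses. EVX2 stood at 347, 495 and 409 in lambs, against 308 and 107 in fetuses. At both genes lamb 1 lay just above fetus 1, and fetus 2 lay far lower. In H3K27ac 4 of 10 neighbours fell, namely SKAP2 (-0.97), HNRNPA1 (-0.95), CBX5 (-0.60) and CALCOCO2 (-0.33), where 17.7% of all promoters fell, and 0 rose.

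Partners and regulators of the HOX genes were read from lists of fixed members. MEIS1, a partner that binds DNA with HOX proteins, stood at 171 and 204 in lambs, against 422 and 466 in fetuses for H3K27ac (-1.25 ± 0.13, limma adjusted p = 1.34e-05). Of the cofactors H3K4me3 listed 4, with 0 calls, and H3K27me3 listed 5, of which PBX4 rose (1.03), where 4.42% of all promoters rose. CDX2, which switches on posterior HOX genes, was the 1 of 9 upstream regulators that rose in H3K4me3 (1.59), where 8.33% of all promoters rose. Its fetal H3K4me3 level stood at the 9.2nd percentile. CDX2 was also the 1 of 5 that fell in H3K27me3 (-0.68), where 8.83% of all promoters fell. Of 8 upstream regulators listed in H3K27ac 3 rose and 1 fell, where 11.4% of all promoters rose and 17.7% fell. Those that rose were the retinoic acid receptor RARG, the retinoic acid degrading enzyme CYP26B1 and the H3K27 demethylase KDM6A. CYP26B1 and KDM6A had fetal levels at the 0.95th and 5.11th percentiles. The receptor RARB fell. A link between the calls in these lists and the HOX changes was not tested.

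Polycomb genes themselves had 24 H3K27ac promoters, of which 7 fell (29.2%) and 2 rose (8.33%), where 17.7% of all promoters fell and 11.4% rose, with a median change of -0.02 against 0.02 over all promoters. JARID2, which recruits the methylating complex, stood at 183 and 176 in lambs, against 321 and 307 in fetuses (-0.80 ± 0.13, limma adjusted p = 0.000394). The histone binding subunit RBBP4 (-0.79) and the accessory subunit MTF2 (-0.68) fell too, while PHF19 rose (0.70). JARID2 was also the 1 Polycomb gene of 19 that changed in H3K4me3 (-0.92). Of the trithorax genes 2 of 6 fell in H3K27ac, ASH1L (-0.50) and PSIP1 (-0.59), and 0 of 6 were called in H3K4me3. H3K27me3 had 3 Polycomb promoters, with 0 called.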

How the data were processed

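Native chromatin was precipitated with 10 µg of antibody and sequenced as 50 bp single reads on 1 of a pair of Illumina platforms, per the labels' protocols. Reads were mapped to Oar_v3.1 with CLC Genomics Workbench 7.0, per the labels. Tools named in the submitters' processing notes are MACS, edgeR and bedtools 2.19.0, with no role given. The authors deposited a promoter signal per library, scaled by a factor not given in the sources used here, and raw read counts per marked region. No input was subtracted, since the pooled input libraries have no values in the tables.

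Promoter values were rescaled by column total and TMM factor, and limma 3.58.1 (trend option) was fitted to log2(value + 1). Region counts went through the quasi-likelihood test of edgeR 4.0.16 with TMM and filterByExpr, chosen after the files were seen. Both fits used all features of a table, stage as the only term and Benjamini-Hochberg adjustment. Alternatives were other scalings, another pseudocount, a filter on low values, the replicate block and left-out libraries. With 2 against 2 or 3 libraries, an adjusted p draws on the spread of all features.

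Members, lists and tests were chosen with earlier results of these data known. Named with all library values were the called promoters (up to 10 per mark by size of change), HOXC8, HOXC9, HOXC10 and HOXA5; others were named after their values were seen. All 33 symbols matched the RefSeq table of ARS-UI_Ramb_v3.0, used for names and neighbours. A few genes, 1 of them a member, are counted but not reported here by name or drawn. Intervals are standard errors of the fit.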

Additional observations from a re-analysis of the deposited data

How the results depend on the processing

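The H3K27ac count of HOX promoters lower in lambs (13) was within 1.5 times of itself under other scalings, pseudocounts, filters and the replicate block, except 8 under cyclic loess. The count of higher promoters (2) was 0 under the deposited scaling. Leaving out 1 library each gave 6 to 16 lower and 0 to 3 higher. For H3K4me3 (1 higher, 0 lower), higher counts were 2 by column totals, 2 with a mean scaled value of at least 50, and 0 under the deposited scaling, cyclic loess, the replicate block, or without lambs 2 and 3 together. The deposited scaling gave 18 lower. Leaving out 1 library gave 0 to 7 higher and 0 to 6 lower. For H3K27me3 (9 lower), the count was 5 under the deposited scaling, 0 under cyclic loess, 10 under the replicate block and 0 to 11 with 1 library left out. The count of higher promoters was 0 throughout. The cause of these shifts was not tested. Of the 15 HOX promoters called in H3K27ac, 7 lost their call under cyclic loess, 9 without lamb 1 and 6 without lamb 2, with no change of sign.

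Under the deposited scaling negative changes numbered 31 of 31 HOX promoters for H3K4me3 (19 as reported) and 24 of 26 for H3K27ac (19 as reported). Among values called before or after a change of sign were HOXB13 (-0.0111) and HOXB8 (-1.26, adjusted p = 0.0347) in H3K4me3 under that scaling, and HOXD12 (0.0483) and HOXC13 (0.00068) in H3K27me3 under cyclic loess. Column totals moved the median of all promoters to 0.11, 0.13 and 0.14 for H3K27ac, H3K4me3 and H3K27me3, and the deposited scaling to -0.30, -1.28 and -0.06.

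Near the 2 HOXA5-named genes, alternatives chosen after seeing the data gave these counts of regions. H3K27ac lower (15) was 9 by column totals and 3 to 18 with 1 library left out. H3K27ac higher (1) was 3 under the replicate block and 0 to 6 with 1 left out. H3K27me3 higher (0) and lower (1) were 2 and 0 by column totals, and 0 to 2 and 0 to 14 with 1 left out. H3K4me3 (0 and 0) gave 0 to 17 higher and 0 to 4 lower.

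Animals of equal number in the 2 stages are different animals, so the numbers do not pair libraries. Deviations of same-numbered libraries correlated at 0.28, -0.39 and 0.10 (H3K27ac, H3K4me3, H3K27me3). The planned edgeR and DESeq2 tests on promoter reads were not run, since the deposited promoter values are scaled. H3K27me3 promoters of HOXD8 and HOXB7 rest on few reads, so small changes there were not detectable.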
